A study of Mus musculus with 6 samples.

Results

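The immediate early genes described here are Fos, Fosb, Junb, Egr1, Nr4a1, Npas4, Arc, Ier2, Dusp1 and Btg2. They were taken by symbol from a table of read counts, in which all 10 were found among 32371 gene identifiers, and all 10 were among the 18138 genes with enough counts to be tested. The counts came from 6 RNA-Seq libraries of mouse retinal cells, 3 from the GFP group and 3 from the Ezh2-Y726D group. Ezh2 is the methyltransferase of polycomb repressive complex 2, and Ezh2-Y726D is a catalytically dead form of it. The question asked of these genes was whether their levels differed after Ezh2-Y726D overexpression, and whether signs of neuronal activity, of the vector or of tissue dissociation moved with them.

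Both groups were adult C57BL/6J mice of 6 to 10 weeks. The GFP group received AAV2-GFP and the Ezh2-Y726D group AAV2-Ezh2-Y726D by intravitreal injection, and in both groups the optic nerve was crushed 2 weeks later. Retinas were taken 3 days after the optic nerve crush (ONC), digested with papain for 8 minutes at 37°C, triturated, and sorted for live cells carrying CD90.2, the product of Thy1. AAV2 vector, ONC, papain and sorting were thus common to all 6 libraries, and no uninjected, uncrushed or undissociated sample was analysed here, so a share of the levels that these steps set in every library cannot be told apart from a resting level. Whether a library came from 1 mouse or from pooled retinas is not given in the sources used here, and the P values therefore measure only the spread between these libraries, which may be technical.

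Immediate early genes are transcribed within minutes of a stimulus without new protein synthesis, because their promoters are poised and bound beforehand by serum response factor with ternary complex factors and by CREB. Synaptic activity and light, growth factors, injury, heat and enzymatic digestion of tissue all raise them, and their transcripts and proteins turn over quickly. In the retina, Fos and Egr1 are widely used as marks of recently active neurons, while in glia and immune cells the same genes respond to cytokines and to handling.

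Total counts per library ran from 9333244 to 23782520. The ribosomal RNA gene CT010467.1 held 6.59%, 50.9% and 52.2% of all reads counted for GFP (replicates 1, 2 and 3) against 2.55%, 16.1% and 7.39% for Ezh2-Y726D (replicates 1, 2 and 3), so that 4460732 counts remained without it in the shallowest library, GFP replicate 3, and 22024582 in the deepest, Ezh2-Y726D replicate 3. Ezh2 itself stood at 22.7, 23.8 and 26.3 CPM (counts scaled to the size of the library) after GFP and at 65.1, 65.5 and 65.1 CPM after Ezh2-Y726D (log2 fold change 1.46, SE 0.0614, adjusted P = 3.00e-16), in the direction of the labels. The labels call the sorted cells RGCs, and transcripts of other retinal cells were abundant. On the scale of CPM per kilobase of exon, the GFP means were 35.2 for Thy1 and 2.34 for Rbpms of RGCs, 39.3 for Gad1 of amacrine cells, 893 for Glul of Müller glia, 184 for C1qa and 15.5 for Cx3cr1 of microglia, and 2.55 for Cd3e of T cells. The cell type in which each immediate early gene was transcribed therefore cannot be read from these libraries.

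The promoters are shown first because the binding sites within them are what the known inducers of these genes share. RefSeq promoter windows (GRCm38.p6, 250 bases before to 50 bases after the start) were matched by symbol for 7 members, Fos, Fosb, Junb, Npas4, Nr4a1, Dusp1 and Btg2, and not for Arc, Egr1 and Ier2. The 150 bases before the start are printed for Fos, Fosb and Junb, which were called higher with and without the library that stood apart for the members, for Dusp1, whose call was lost without single libraries, and for Nr4a1, which was not called. They lie at chr12:85473740-85473889 on the plus strand for Fos, chr7:19310046-19310195 on the minus strand for Fosb, chr8:84978749-84978898 on the minus strand for Junb, chr17:26508473-26508622 on the minus strand for Dusp1 and chr15:101266696-101266845 on the plus strand for Nr4a1. Capitals mark TGACG, the core of the cAMP response element that CREB binds, or its reverse complement CGTCA.
Fos: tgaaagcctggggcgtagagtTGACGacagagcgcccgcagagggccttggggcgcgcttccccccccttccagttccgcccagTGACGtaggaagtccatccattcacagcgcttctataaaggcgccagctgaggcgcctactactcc
Fosb: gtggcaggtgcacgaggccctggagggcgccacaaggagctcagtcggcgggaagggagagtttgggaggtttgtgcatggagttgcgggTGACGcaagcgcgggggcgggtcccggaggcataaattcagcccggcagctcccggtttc
Junb: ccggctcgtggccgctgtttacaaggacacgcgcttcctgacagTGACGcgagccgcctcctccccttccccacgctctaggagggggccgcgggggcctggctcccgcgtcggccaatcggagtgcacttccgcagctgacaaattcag
Dusp1: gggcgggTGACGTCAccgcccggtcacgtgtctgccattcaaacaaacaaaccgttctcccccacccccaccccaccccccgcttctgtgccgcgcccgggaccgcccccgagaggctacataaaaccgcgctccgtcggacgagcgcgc
Nr4a1: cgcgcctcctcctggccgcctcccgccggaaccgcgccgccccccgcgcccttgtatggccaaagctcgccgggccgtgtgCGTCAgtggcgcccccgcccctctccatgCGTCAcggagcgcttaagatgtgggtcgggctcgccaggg

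Exact matches were searched on both strands of the windows. TGACG was present in 7 of the 7 matched members and in 20.8% of all 32851 windows. The whole cAMP response element TGACGTCA, which contains TGACG, was present in Dusp1 and Btg2 and in 1.79% of all windows. The EGR site GCGNGGGCG was present in Fosb, Nr4a1 and Btg2 and in 5.55% of all windows, and TATAAA in Fos and Junb and in 13.6%. The ETS core CCGGAA was present in Nr4a1 and in 14.9% of all windows. Neither the CArG box nor the AP-1 site TGANTCA was matched in any of the 7, against 1.63% and 7.81% of all windows, which says only that these letters were not in these windows. The matches did not separate the members by their response, since Fos, Fosb and Junb held TGACG as did Nr4a1 and Btg2.

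Of the 10 immediate early genes, 6 were higher after Ezh2-Y726D overexpression (Fos, Fosb, Junb, Egr1, Ier2 and Dusp1), 0 were lower, and Arc, Npas4, Nr4a1 and Btg2 were not called. A gene was called at an adjusted P under 0.05 in edgeR's quasi-likelihood test over all tested genes, at which 13.9% of all tested genes were higher and 13.6% lower. In both directions together, 27.5% of all tested genes were called. At an unadjusted P under 0.05, 7 members were higher and 0 lower, and DESeq2 called 1 higher (Ier2) and 0 lower, against 10.4% of all genes called higher by DESeq2. Library totals without scaling factors called 0 members and only 0.254% of all tested genes higher, so that this count says nothing about the members. Fosb and Ier2 were also DEGs, that is, genes with a fold change over 1.5 as well, as were 2.52% of all tested genes in this direction, while 0 members and 5.5% of all tested genes were DEGs in the other. The median log2 fold change of the members was 0.28, against 0.00181 for all tested genes. It was 0.13 without Ezh2-Y726D replicate 1 and 0.16 with the share of counts on CT010467.1 as a covariate. In 4 members (Fos, Fosb, Junb and Ier2) every Ezh2-Y726D library lay above every GFP library, which held for 19.7% of all tested genes, and 0 members and 18.9% of all tested genes were separate in the other direction. In a model with the CT010467.1 share as a covariate, Fos (log2 fold change 0.27), Fosb (0.37, adjusted P = 0.0454) and Ier2 (0.44) remained called, beside 13.5% of all tested genes called higher.

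**Figure D1:**
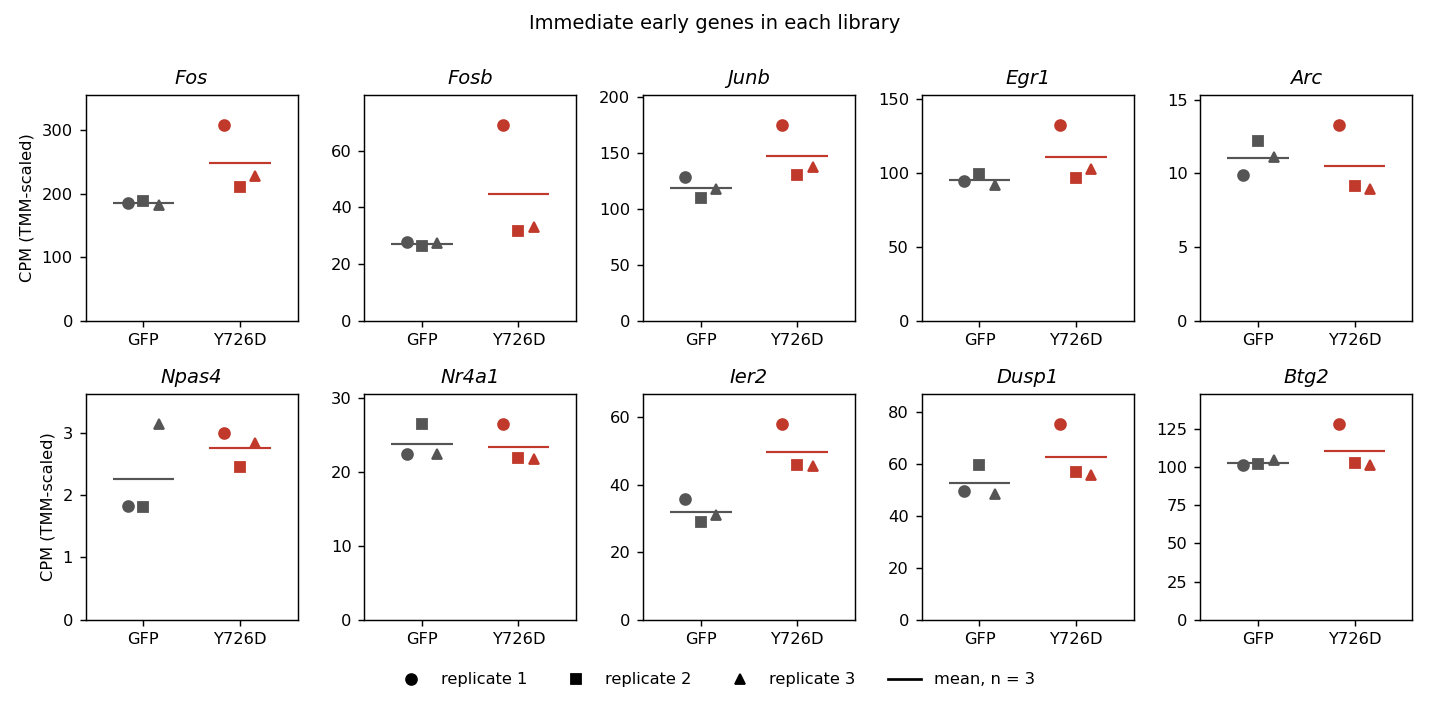
Level of each of the 10 immediate early genes in each library, as CPM of the TMM-scaled library (vertical axis, from 0, with its own range for each gene), with GFP in grey and Ezh2-Y726D in red, symbols for the replicates and a line at the mean of 3 libraries. Ezh2-Y726D replicate 1 is the highest library of its group in all 10 panels, and the groups are separate for Fos, Fosb, Junb and Ier2.

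Fos, Fosb and Junb encode subunits of AP-1, the dimeric transcription factor in which a Fos protein pairs with a Jun protein. Fos (ENSMUSG00000021250, chromosome 12, 85473890 to 85477273, plus strand) stood at 186, 189 and 183 CPM in GFP replicates 1, 2 and 3 and at 309, 211 and 227 CPM in Ezh2-Y726D replicates 1, 2 and 3. All Ezh2-Y726D libraries were above all GFP libraries, replicate 1 by the widest margin, and the GFP libraries lay within a coefficient of variation of 1.75% relative to 21.1% in the Ezh2-Y726D group. Fos was 1.34-fold higher (log2 fold change 0.42, SE 0.0795, adjusted P = 0.00013).

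Fosb (ENSMUSG00000003545, chromosome 7, 19302696 to 19310051, minus strand), whose protein persists longer than that of Fos in stimulated neurons, stood at 27.9, 26.3 and 27.3 CPM after GFP and at 69.3, 31.7 and 33.2 CPM after Ezh2-Y726D. Its groups did not overlap, and Ezh2-Y726D replicate 1 stood 2.14-fold above the mean of the other 2 libraries of its group. Fosb had the highest fold change of the 10 members (log2 0.72, SE 0.183, adjusted P = 0.00338). Without that library the log2 fold change was 0.25 (adjusted P = 0.00597).

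Junb (ENSMUSG00000052837, chromosome 8, 84974484 to 84978718, minus strand), a Jun protein that often restrains Jun, stood at 128, 110 and 117 CPM after GFP and at 175, 130 and 137 CPM after Ezh2-Y726D. The groups were separate by a narrow margin, with the lowest Ezh2-Y726D library (130 CPM) next to the highest GFP library (128 CPM). The log2 fold change was 0.30 (SE 0.0724, adjusted P = 0.00202). Of its exonic bases, 7.5% overlap Prdx2 on the opposite strand, and whether the counting used strand is not given in the sources used here.

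Egr1, Nr4a1 and Npas4 are the other transcription factors among the members. Egr1 (ENSMUSG00000038418, chromosome 18, 34859823 to 34864984, plus strand), a zinc finger factor that follows ERK signaling, stood at 94.6, 99.3 and 91.6 CPM after GFP and at 133, 96.4 and 102 CPM after Ezh2-Y726D. The groups overlapped, since Ezh2-Y726D replicate 2 lay below GFP replicate 2. Egr1 was called higher (log2 fold change 0.22, SE 0.0739, adjusted P = 0.0271), and it was not called without Ezh2-Y726D replicate 1 (0.06, adjusted P = 0.413), without GFP replicate 1 (0.21, adjusted P = 0.0896) or without GFP replicate 3 (0.20, adjusted P = 0.0722).

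Nr4a1 (ENSMUSG00000023034, chromosome 15, 101254269 to 101274795, plus strand), an orphan nuclear receptor induced in neurons by calcium and in lymphocytes by antigen receptors, stood at 22.5, 26.5 and 22.4 CPM after GFP and at 26.4, 21.9 and 21.8 CPM after Ezh2-Y726D. The groups overlapped. Its log2 fold change was -0.00 with an SE of 0.0821 (adjusted P = 0.989).

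Npas4 (ENSMUSG00000045903, chromosome 19, 4984355 to 4990316, minus strand) is a bHLH-PAS factor known for its selective induction in neurons by calcium influx. It stood at 1.82, 1.80 and 3.15 CPM after GFP and at 3.00, 2.45 and 2.84 CPM after Ezh2-Y726D. These levels rested on 52, 14 and 19 counts in the GFP libraries and on 80, 50 and 84 in the Ezh2-Y726D libraries, the fewest of any member in each library. GFP replicate 3 lay above all Ezh2-Y726D libraries, and the log2 fold change of 0.45 carried an SE of 0.214 (adjusted P = 0.131). Without GFP replicate 3 Npas4 was called higher (0.62, adjusted P = 0.0380), and after thinning to the shallowest library its log2 fold change was 0.15 (SE 0.302, adjusted P = 0.792).

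Arc, Ier2, Dusp1 and Btg2 act downstream of or back on these pathways. Arc (ENSMUSG00000022602, chromosome 15, 74669083 to 74672570, minus strand), a synaptic protein that promotes internalization of AMPA receptors, stood at 9.88, 12.2 and 11.1 CPM after GFP and at 13.3, 9.15 and 8.97 CPM after Ezh2-Y726D. Ezh2-Y726D replicate 1 was the highest of the 6 libraries and replicates 2 and 3 the lowest. The log2 fold change was -0.02 (SE 0.131, adjusted P = 0.952), and without Ezh2-Y726D replicate 1 it was -0.23 (adjusted P = 0.146).

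Ier2 (ENSMUSG00000053560, chromosome 8, 84661331 to 84662852, minus strand), a nuclear protein induced by serum and growth factors, stood at 35.7, 29.1 and 31.1 CPM after GFP and at 58.1, 45.8 and 45.7 CPM after Ezh2-Y726D. All Ezh2-Y726D libraries were above all GFP libraries, and replicates 2 and 3 alone gave Ier2 the highest log2 fold change of the members (0.46). Ier2 was 1.51-fold higher (log2 fold change 0.59, SE 0.0829, adjusted P = 1.92e-06), and it was the member with the lowest P.

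Dusp1 (ENSMUSG00000024190, chromosome 17, 26505590 to 26562128, minus strand), a phosphatase that inactivates p38, JNK and ERK in the nucleus, stood at 49.7, 59.5 and 48.4 CPM after GFP and at 75.4, 56.7 and 55.7 CPM after Ezh2-Y726D. GFP replicate 2 lay above Ezh2-Y726D replicates 2 and 3. The log2 fold change was 0.27 (SE 0.0858, adjusted P = 0.0184). Its call was lost without Ezh2-Y726D replicate 1 (0.11, adjusted P = 0.231), without GFP replicate 1 (0.20, adjusted P = 0.169) and without GFP replicate 3 (0.24, adjusted P = 0.0592).

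Btg2 (ENSMUSG00000020423, chromosome 1, 134075170 to 134079120, minus strand), an antiproliferative partner of the CCR4-NOT deadenylase, stood at 101, 102 and 105 CPM after GFP and at 128, 103 and 101 CPM after Ezh2-Y726D. Replicate 2 of Ezh2-Y726D lay within the narrow range of the GFP group, and replicate 3 (101.1 CPM) just below its lowest library (101.2 CPM). The log2 fold change was 0.11 (SE 0.0627, adjusted P = 0.192), and Btg2 was called higher without Ezh2-Y726D replicate 3 (0.18, adjusted P = 0.0349).

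**Figure D2:**
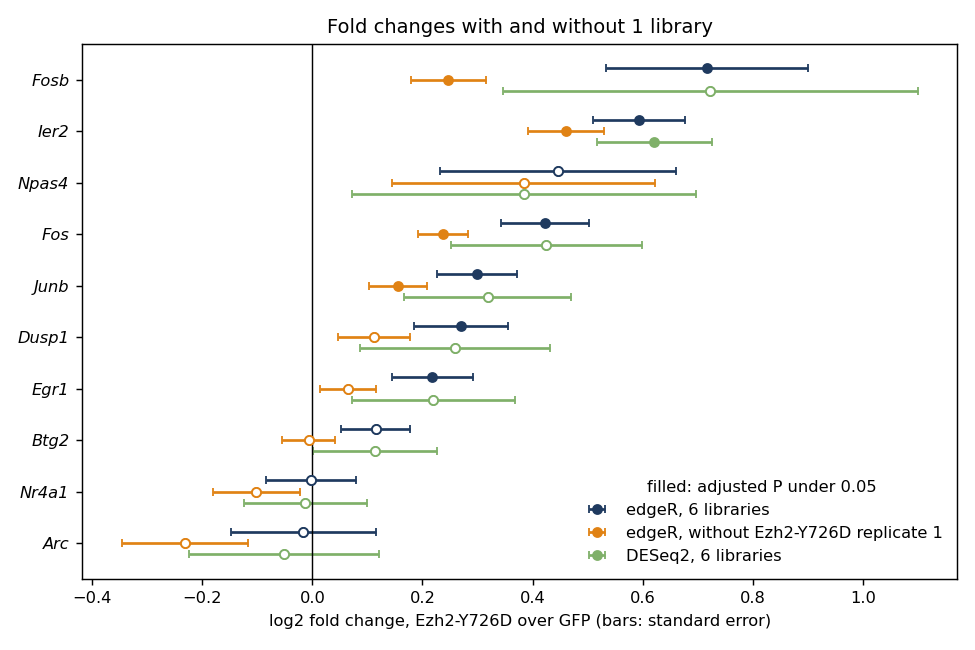
Log2 fold change of each immediate early gene, Ezh2-Y726D over GFP (horizontal axis), with its standard error as a bar, in edgeR with 6 libraries (dark blue), in edgeR without Ezh2-Y726D replicate 1 (orange) and in DESeq2 with 6 libraries (green). Points are filled at an adjusted P under 0.05, which is the case for 6 genes in the first, 4 in the second and 1 in the third.

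Members can be ranked only on a scale that takes account of transcript length. In the GFP libraries, Fos led with 79.0 ± 1.38 CPM per kilobase of exon (SD, n = 3). Junb (51.5 ± 4.10), Btg2 (37.4 ± 0.653), Egr1 (21.2 ± 0.865), Ier2 (21.02 ± 2.23), Dusp1 (15.9 ± 1.84), Nr4a1 (6.78 ± 0.676), Fosb (4.35 ± 0.133), Arc (3.62 ± 0.386) and Npas4 (0.546 ± 0.186) followed on that scale. Egr1 and Ier2 overlapped in their libraries, whereas every other member was separate from the next in this order. Fos thus stood 145-fold above Npas4 per kilobase, at the 98.9th percentile of all tested genes, and Npas4 at the 13.9th. By the means of the Ezh2-Y726D libraries Ier2 (32.7 ± 4.70) ranked above Egr1 (24.6 ± 4.35) and Fosb (7.17 ± 3.41) above Nr4a1 (6.65 ± 0.758), and the other ranks were those of the GFP libraries. Fosb exceeded Nr4a1 in replicate 1 alone, with 11.1, 5.08 and 5.32 CPM per kilobase in replicates 1, 2 and 3 against 7.53, 6.23 and 6.20 for Nr4a1. These are levels per length over a mixture of cells. The length was that of all annotated exons merged, not of the isoforms expressed. Before division by length, Fosb had a higher GFP mean than Nr4a1 (27.2 against 23.8 CPM).

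A single library carried much of the difference. The summed level of the 10 members was 658, 656 and 640 CPM in the GFP libraries and 991, 707 and 737 CPM in the Ezh2-Y726D libraries, that is, 651 ± 9.82 and 812 ± 156 (SD, n = 3 each). In Ezh2-Y726D replicate 1, all 10 members were the highest of their group, and 8 were the highest of all 6 libraries, with Npas4 and Nr4a1 the exceptions. The ratio of that library to the mean of the other 2 of its group ran from 1.14 for Npas4 to 2.14 for Fosb.

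To set this against the rest of the transcriptome, each library was expressed as its log2 (CPM + 0.5) minus the mean of the other 2 libraries of its group. In Ezh2-Y726D replicate 1 the members had a median of 0.40, while all tested genes had a median of 0.00125 with 5th and 95th percentiles of -0.28 and 0.27. Fosb deviated by 1.08, Arc by 0.53, Fos by 0.50, Dusp1 and Egr1 by 0.42, Junb by 0.39, Ier2 by 0.34, Btg2 by 0.33, Nr4a1 by 0.27 and Npas4 by 0.16. Arc and Nr4a1, which were not called between the groups, deviated in this library in the same direction as Fos and Fosb, while Ezh2-Y726D replicates 2 and 3 were the lowest of the 6 libraries for both. The medians of the members in the GFP libraries were -0.02, 0.01 and -0.03, and those in Ezh2-Y726D replicates 2 and 3, for which replicate 1 was among the libraries subtracted, were -0.23 and -0.17.

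**Figure D3:**
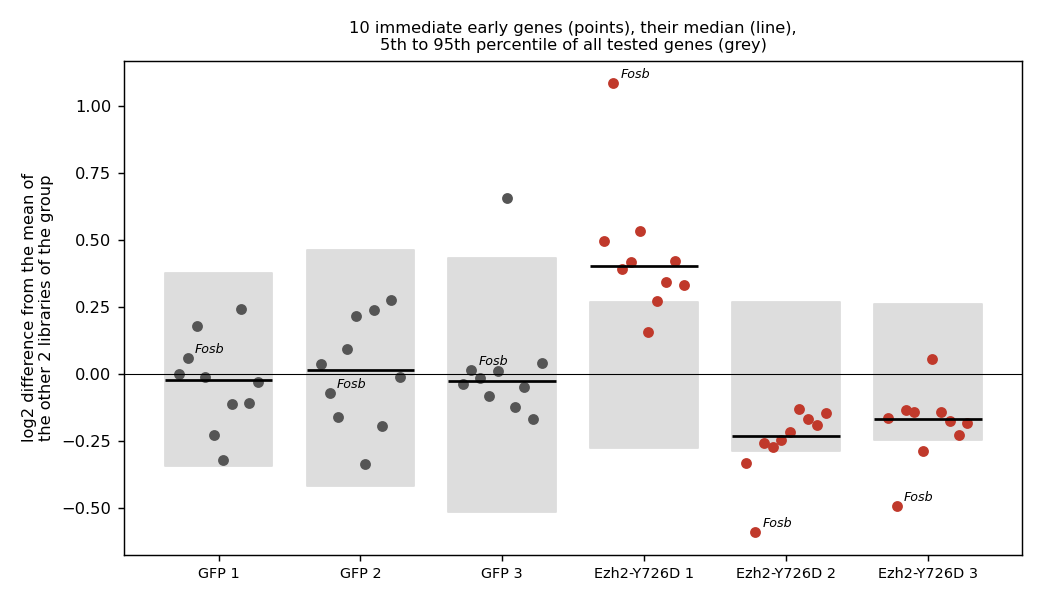
Difference of each immediate early gene from the mean of the other 2 libraries of the group, in log2 (CPM + 0.5) (vertical axis), for each of the 6 libraries, with a line at the median of the 10 genes and a grey band from the 5th to the 95th percentile of all tested genes. All 10 genes lie above 0 in Ezh2-Y726D replicate 1, with a median of 0.40, while the medians of the GFP libraries lie between -0.03 and 0.01.

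The members that remained called without this library were Fos, Fosb, Junb and Ier2. Their log2 fold changes were then 0.24 (adjusted P = 0.00015), 0.25 (adjusted P = 0.00597), 0.16 (adjusted P = 0.0270) and 0.46 (adjusted P = 2.91e-06), and 12.7% of all genes were called higher in that model. For the same 4 members, Ezh2-Y726D replicates 2 and 3 both lay above every GFP library, as did 23.2% of all tested genes. Egr1, Dusp1, Btg2, Nr4a1, Arc and Npas4 were not called without it, and Btg2 (-0.01), Nr4a1 (-0.10) and Arc (-0.23) then had negative log2 fold changes. The exact permutation test of 3 libraries against 3 cannot give a P under 0.1 and was not used for single genes.

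Single heat shock genes were among those that deviated most in this library. Among the 10487 genes with a mean of at least 10 CPM, the 20 that deviated most upward in Ezh2-Y726D replicate 1 included 6 members (Fosb, Arc, Fos, Dusp1, Egr1 and Junb), the inducible HSP70 genes Hspa1b (1.00) and Hspa1a (0.63) and their cochaperone Dnajb1 (0.50). They also included Cd69 (0.61), an activation antigen of lymphocytes, the matricellular Ccn1 (0.41), the stress phosphatase subunit Ppp1r15a (0.41) and Gadd45g (0.38). They were picked with their values in view. Whether the time or handling during dissociation for this library set these levels was not tested.

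Hspa1a stood at 16.4, 16.5 and 15.2 CPM after GFP and at 22.7, 14.7 and 14.1 CPM after Ezh2-Y726D. Hspa1b stood at 13.8, 15.8 and 12.3 CPM after GFP and at 23.9, 10.9 and 12.5 CPM after Ezh2-Y726D, and Dnajb1 at 40.4, 36.1 and 39.1 CPM and at 50.7, 34.3 and 37.4 CPM. In all 3 genes Ezh2-Y726D replicate 1 was the highest of the 6 libraries, and the other 2 libraries of its group lay below the GFP range or within it. Without that library the log2 fold changes of Hspa1a, Hspa1b and Dnajb1 were -0.17, -0.25 and -0.12, and none of these 3 was called with or without it. Hspa1a and Hspa1b are near-identical copies whose reads can be assigned to either, so their separate values are uncertain.

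**Figure D4:**
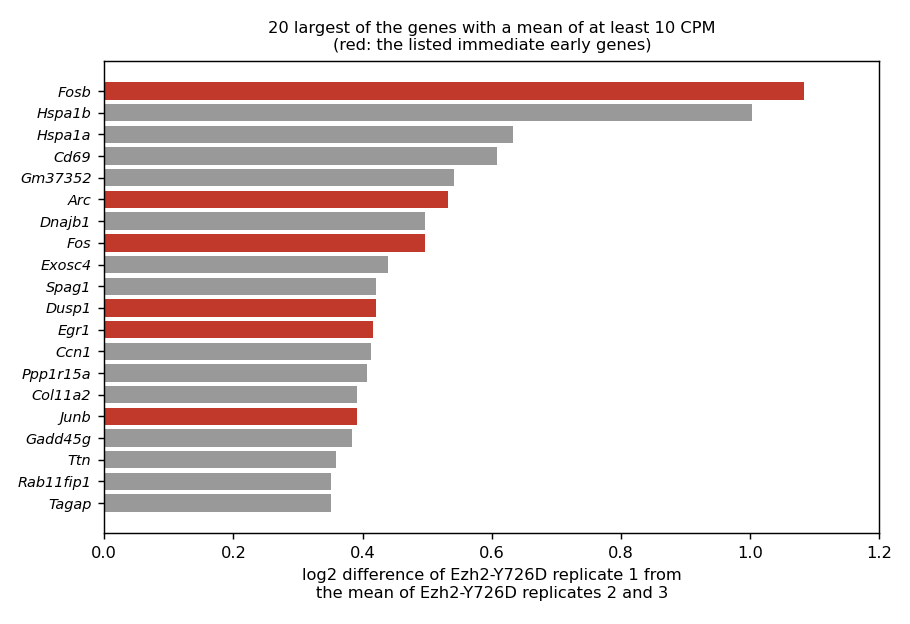
The 20 genes that deviated most upward in Ezh2-Y726D replicate 1 among genes with a mean of at least 10 CPM, as the log2 difference of that library from the mean of Ezh2-Y726D replicates 2 and 3 (horizontal axis, from 0), with the listed immediate early genes in red. Fosb leads with 1.08, Hspa1b and Hspa1a follow, and 6 of the 20 bars are immediate early genes.

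Over a list of 18 heat shock and stress genes known to rise when tissue is dissociated, 13 lay above the mean of the other 2 libraries in Ezh2-Y726D replicate 1, with a median deviation of 0.06, and Hspa8, Hspd1, Hsp90aa1, Hsp90ab1 and Hspa5 lay below it. In GFP replicate 2, 14 of the 18 lay above, with a median of 0.04, so the list as a whole did not set Ezh2-Y726D replicate 1 apart. Of 30 other primary response genes, 25 did, with a median of 0.16, and of 20 activity-regulated genes of neurons 12 did, with a median of 0.05. Markers of microglia lay the other way in this library, with 0 of 9 above and a median of -0.24, as did those of activated phagocytes, with 1 of 9 above and a median of -0.17, and of T cells, with 2 of 8 above and a median of -0.12. The summed microglial markers were 562 CPM in this library and 656 and 661 CPM in Ezh2-Y726D replicates 2 and 3. Markers of Müller glia lay above in 7 of 8, with a median of 0.06, as they did in GFP replicate 3 (7 of 8, median 0.08). The library also had the lowest share of counts on CT010467.1, at 2.55%. The part of the vector, of cell composition or of the CT010467.1 share in the members' levels in this library was not tested.

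Between the groups, 3 genes of the heat shock list were called, beside 27.5% of all tested genes in either direction. Of its 18 genes, 1 was higher (Hsp90aa1, a cytosolic HSP90, log2 fold change 0.13) and 2 were lower (Hmox1, the heme oxygenase induced by oxidative stress, -0.67, and Hspa5, the chaperone of the endoplasmic reticulum, -0.22), and 15 were not called, with a median of 0.03. Hspa1a (0.09, SE 0.126), Hspa1b (0.19, SE 0.182) and Dnajb1 (0.07, SE 0.0946) were not called. The summed level of the list was 2795 to 2925 CPM in the GFP libraries and 2839 to 2910 CPM in the Ezh2-Y726D libraries, so the groups overlapped. Without Ezh2-Y726D replicate 1, 1 was higher and 3 were lower, with a median of -0.08.

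Of 12 genes of AP-1 and related bZIP factors, the partners and relatives of the AP-1 members, 2 were higher and 2 lower (13.9% and 13.6% of all tested genes). The median log2 fold change was -0.02, and DESeq2 called 1 higher and 2 lower. Jun, the main partner of Fos, stood at 179, 166 and 169 CPM after GFP and at 235, 186 and 188 CPM after Ezh2-Y726D (0.24, SE 0.0605, adjusted P = 0.00273), in separate groups with Ezh2-Y726D replicate 1 again the highest, and at 0.12 without that library (adjusted P = 0.0449). Mafg, a small Maf protein, was higher as well (0.20). Atf3, a stress factor induced in RGCs by axon injury, fell from 76.6, 77.8 and 77.0 CPM to 71.8, 62.5 and 63.5 CPM (-0.22, SE 0.0532, adjusted P = 0.00179), and Batf, a bZIP factor of lymphoid and myeloid cells, fell from 4.13, 5.41 and 5.13 CPM to 1.76, 2.10 and 2.27 CPM (-1.17, SE 0.181, adjusted P = 9.25e-06).

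The relatives of Egr1 and Nr4a1 went both ways. Of 7 EGR, NR4A and NAB genes, 1 was higher and 3 lower (13.9% and 13.6% of all tested genes), with a median log2 fold change of -0.19. DESeq2 called 1 higher and 1 lower, and after thinning to the shallowest library 0 were called. Nr4a2 rose from 6.76, 7.73 and 6.79 CPM to 10.2, 9.49 and 9.92 CPM (0.50, SE 0.109, adjusted P = 0.000668), with all Ezh2-Y726D libraries above all GFP libraries and none standing apart. Nr4a3 fell from 5.53, 5.67 and 5.80 CPM to 3.90, 4.16 and 3.59 CPM (-0.54, SE 0.141, adjusted P = 0.00419). Egr2 (-0.49), a zinc finger factor, and Nab1 (-0.26), a corepressor that EGR proteins recruit, fell too. The 3 NR4A receptors thus had log2 fold changes of -0.00, 0.50 and -0.54 in the same libraries.

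Other primary response genes were split. Of 30 genes, 7 were higher and 11 lower (3 and 8 in DESeq2), beside 13.9% and 13.6% of all tested genes in edgeR. The median log2 fold change of the list was -0.04. Ccn1, a matricellular protein and target of serum response factor and YAP, rose from 56.4, 56.4 and 53.2 CPM to 104, 72.9 and 83.1 CPM (0.64, SE 0.0810, adjusted P = 3.54e-07), and at 0.49 without Ezh2-Y726D replicate 1 (adjusted P = 9.96e-08). Phlda1 rose by 0.62 (SE 0.164, adjusted P = 0.00481), and Klf4, Plk2, Ier5l, Zfp36 and Trib1 were higher by 0.60, 0.44, 0.40, 0.30 and 0.17. Without Ezh2-Y726D replicate 1, Klf4, Ier5l and Trib1 were no longer called (0.42, 0.27 and 0.10), and the list had 4 higher and 12 lower. Myc, the proliferation factor, fell from 5.64, 6.57 and 6.46 CPM to 3.19, 2.74 and 3.76 CPM (-0.87, SE 0.153, adjusted P = 5.19e-05). Pim1, Nfkbia and Gadd45b fell by 0.51, 0.39 and 0.37.

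Genes known to follow neuronal activity were split as well. Of 20, 6 were higher (Tac1, Dclk1, Pcsk1, Lingo1, Vgf and Scg2) and 3 lower (Penk, Rgs4 and Nrn1), with a median log2 fold change of 0.03. Of all tested genes, 13.9% were higher and 13.6% lower. DESeq2 called 6 of the 20 higher and 2 lower, and Nrn1 was not called without Ezh2-Y726D replicate 1 (-0.21). The summed level of the 20 genes was 1130 to 1167 CPM after GFP and 1248 to 1283 CPM after Ezh2-Y726D, without overlap. Such a sum is weighted to the most abundant genes, and 11 of the 20 were not called. Tac1, the substance P precursor made by amacrine cells, rose from 11.3, 10.8 and 11.6 CPM to 23.3, 24.8 and 20.6 CPM (1.02, SE 0.0880, adjusted P = 4.28e-10). Penk, the enkephalin precursor, fell from 8.76, 10.05 and 9.61 CPM to 5.78, 6.80 and 5.96 CPM (-0.59, SE 0.116, adjusted P = 0.00025). Bdnf, the neurotrophin transcribed after calcium influx, stood at 11.6, 11.5 and 12.3 CPM after GFP and at 9.42, 10.1 and 9.98 CPM after Ezh2-Y726D (-0.25, SE 0.0953, adjusted P = 0.0542). The part of neuronal activity in the members' levels was not tested.

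Of 32 genes of the MAPK and SRF-TCF-CREB pathway, the kinases and factors upstream of the members, 7 were higher and 5 lower. DESeq2 called 5 higher and 2 lower, and edgeR called 13.9% and 13.6% of all tested genes. The median log2 fold change was 0.03, and 20 of the 32 were not called. Their summed level, weighted to the most abundant genes, was 1753 to 1787 CPM after GFP and 1842 to 1865 CPM after Ezh2-Y726D, without overlap. Elk3, a ternary complex factor that can repress serum response elements and is abundant in vessels and macrophages, fell from 16.2, 17.0 and 17.7 CPM to 10.7, 10.5 and 11.9 CPM (-0.59, SE 0.0880, adjusted P = 5.17e-06). The neuronal kinases Camk4, Mapk10 and Camk2a were higher by 0.40, 0.40 and 0.37. Srf itself stood at 25.0, 24.3 and 22.03 CPM after GFP and at 24.7, 22.1 and 23.2 CPM after Ezh2-Y726D (-0.05, SE 0.0704, adjusted P = 0.662).

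Among 10 MAPK phosphatases related to Dusp1, 3 were lower and 0 higher, beside 13.6% and 13.9% of all tested genes. The other 7 were not called. At an unadjusted P under 0.05, 3 were lower and 0 higher, and DESeq2 called 2 lower and 0 higher. Dusp2 (-0.55), Dusp5 (-0.47) and Dusp14 (-0.45) fell, while Dusp6, the ERK phosphatase, stood at 67.8, 75.3 and 70.6 CPM after GFP and at 73.5, 66.6 and 70.3 CPM after Ezh2-Y726D (-0.01, SE 0.0522). The list had a median log2 fold change of -0.07, whereas Dusp1 stood at 0.27. Without Ezh2-Y726D replicate 1, Dusp14 was not called (-0.40).

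**Figure D5:**
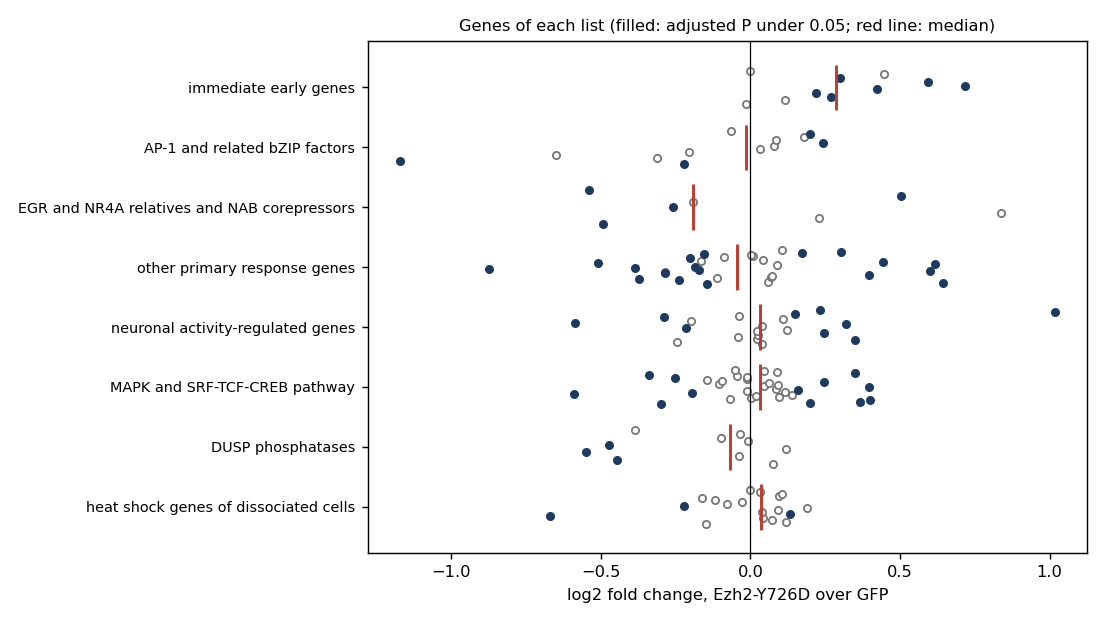
Log2 fold change of every gene of the immediate early genes and of 7 related lists, Ezh2-Y726D over GFP (horizontal axis), filled at an adjusted P under 0.05 in edgeR, with a red line at the median of each list. The immediate early genes have a median of 0.28 (0.13 without Ezh2-Y726D replicate 1), and the medians of the related lists lie between -0.19 and 0.03.

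Markers of cell types moved between the groups in the same libraries. In bulk samples, fewer cells of a type and less RNA per cell cannot be told apart. Of all tested genes, 13.9% were called higher and 13.6% lower. Of 8 tested amacrine cell markers (Chat had too few counts), 7 were higher and 1 lower, and their summed level was 1396 to 1523 CPM in the GFP libraries and 2090 to 2154 CPM in the Ezh2-Y726D libraries. All 9 markers of activated phagocytes were lower (summed 4258 to 4476 against 2434 to 2491 CPM). So were all 8 of T cells (129 to 132 against 74.5 to 81.7 CPM) and 7 of 9 of microglia (894 to 995 against 562 to 661 CPM). In edgeR 1 microglial marker, P2ry12, was higher, while DESeq2 called 0 microglial markers higher. Bipolar cell markers were lower in 7 of 8, with Prkca higher (0.34), and cone markers in 6 of 6.

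RGC markers gave 2 higher and 1 lower of 12 (1 and 1 in DESeq2). Their summed levels were 656 to 674 CPM after GFP and 633 to 678 CPM after Ezh2-Y726D. Without Ezh2-Y726D replicate 1 they gave 2 higher and 2 lower, with Rbpms then lower (-0.26). Müller glia markers gave 2 higher and 3 lower of 8, and 2 and 4 both in DESeq2 and without that library. Pericyte markers were lower in 5 of 6 and endothelial markers in 2 of 7 (4 and 1 in DESeq2). None of the tested markers was at 0. The part of these shifts in the levels of the immediate early genes was not tested.

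The pattern of the members over the 6 libraries was followed most closely by Egr1 among themselves, with a root mean square difference of 0.0515 (log2) from their mean pattern, and least closely by Fosb (0.277). Outside the lists, the 5 most similar genes with a mean of at least 10 CPM were Atxn7l2 (0.0582), Ajm1 (0.0810), Nat14 (0.0838), Nrbp2 (0.0898) and Nes (0.0905). Nes, the intermediate filament nestin, stood at 52.2, 57.3 and 53.5 CPM after GFP and at 76.9, 64.4 and 66.7 CPM after Ezh2-Y726D (0.37, adjusted P = 2.75e-05). The 6 libraries of 2 groups share depth and CT010467.1 differences, so this likeness is a description.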

How the data were processed

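RNA was made from CD90.2-sorted retinal cells with a stranded total RNA kit. The authors deposited whole-number read counts per gene without normalization. STAR 2.7.0d and GRCm38 stand in the submitters' processing notes, and the counting tool, annotation and strand setting are not given in the sources used here. Each column matched 1 sample label. Symbols were found for 32325 of 32371 identifiers, and coordinates and exon lengths came from GENCODE vM21 (32342 identifiers). Promoter windows are those of RefSeq.

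From the deposited counts, CPM of the TMM-scaled library (factors 0.647 to 1.31) and edgeR's quasi-likelihood test (edgeR 4.0.16, R 4.3.3) were computed, with filterByExpr (10 counts, total 15) and Benjamini-Hochberg adjustment over 18138 genes. The common biological coefficient of variation was 0.0442. The SE is the log2 fold change over the square root of F. No 2 libraries agreed within sampling noise (chi-square per degree of freedom 1.53 to 3.23 within groups). In simulated counts of 18504 genes, 91.5% of 200 genes changed by a log2 fold change of 1 were recovered, with 11 false calls. These counts were drawn with the common coefficient of variation for every gene. They therefore do not tell how well the smaller and more variable changes of the members were recovered. The rRNA gene CT010467.1 was kept in the scaling.

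Alternatives were RLE factors, library totals, omission of CT010467.1, DESeq2 1.42.0, other filters and fold change thresholds, thinning to 4460732 counts, the replicate block and each library left out. Omission of GFP replicates 2 and 3 and the CT010467.1 share as a covariate were added after seeing the data. The members and lists were chosen with earlier results of these data known. All members were named; of each related list, the 3 DEGs (fold change over 1.5, adjusted P under 0.05) with the lowest P, or fewer where fewer passed; a few cell type markers, of which 1 is not reported here; Ezh2; CT010467.1; and the 5 genes most like the members. Other genes of the lists were named after their values were seen.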

Additional observations from a re-analysis of the deposited data

How the results depend on the processing

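RLE size factors, omission of CT010467.1 from the scaling, library totals without CT010467.1 and a minimum of 10 counts in every library kept the 6 members called; only the sign of Nr4a1, near 0, turned (0.0016 with the minimum count). Library totals without scaling moved the median of all genes by 0.49, called 0 members (6 at an unadjusted P under 0.05), 1 gene of the related lists and 65 genes in all, of which 70.8% were higher relative to 50.6% of 4988, and gave log2 fold changes of 0.94 (Fos), 1.24 (Fosb), 0.80 (Junb), 0.73 (Egr1), 1.11 (Ier2), 0.78 (Dusp1), 0.47 (Arc) and 0.50 (Nr4a1). DESeq2 called 1 member and gave similar sizes with larger errors for Fos (0.43, adjusted P = 0.0681), Fosb (0.72, 0.194), Junb (0.32, 0.138), Egr1 (0.22, 0.370) and Dusp1 (0.26, 0.364). With the CT010467.1 share as a covariate, 3 members were called, and Junb (0.12), Egr1 (0.10) and Dusp1 (0.20) were not. Without GFP replicates 2 and 3, which leaves 1 GFP library that is assumed to vary like the Ezh2-Y726D libraries, Junb (0.20) and Egr1 (0.23) were not called, and Arc (0.092) and Nr4a1 (0.058) turned positive. After thinning, 3291 genes were called, Egr1 (0.19) and Dusp1 (0.18) were not, and Arc (0.018) and Nr4a1 (0.027) turned positive. Without a filter, Btg2 was called (0.13) and Nr4a1 stood at 0.0070. For these changes the cause was not tested. A fold change over 1.5 left 2 members, 9 of 53 genes of the related lists and 1455 genes in all, and a fold change over 2 left 0, 2 and 443.

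Leaving out each library in turn gave 4 to 7 members called, 44 to 51 genes of the related lists and 3772 to 4602 in all. Log2 fold changes ran from 0.24 to 0.52 (Fos), 0.25 to 0.91 (Fosb), 0.16 to 0.38 (Junb), 0.064 to 0.30 (Egr1), -0.23 to 0.10 (Arc), 0.21 to 0.62 (Npas4), -0.10 to 0.059 (Nr4a1), 0.46 to 0.73 (Ier2), 0.11 to 0.35 (Dusp1) and -0.0065 to 0.18 (Btg2). Deviations of same-numbered libraries were weakly correlated over all tested genes (0.137, 0.051 and 0.039). Such correlations cannot show whether same-numbered libraries were handled together, which the labels do not give. With the replicate block 7 members were called higher, Btg2 (0.14) among them, beside 14.7% of all tested genes, and Arc (0.054) and Nr4a1 (0.033) turned positive. Groups of 3 limit precision. The SE was largest for Npas4 in edgeR (0.214), with 14 counts in GFP replicate 2, and for Fosb in DESeq2 (0.377, against 0.312 for Npas4).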
